A study of Mus musculus with 16 samples.

Results

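The genes described here are 32 antiviral genes known as targets of type I interferon, chosen by symbol from a list of such genes and looked up in a table of read counts per gene. They were chosen with earlier results of these data known, so their share called beside that of all entries is not independent evidence. All 32 had an entry among the 15871 entries of the table, and all 32 were among the 13527 entries with enough counts to be tested. Wild-type C57BL/6 mice aged 8 weeks were given 6% starch to draw macrophages into the peritoneum, and the cells, treated for 48 h, gave 16 libraries in 4 groups of 4. L_C had low glucose and 27.5 mM mannitol as an osmotic control, H_C had 33 mmol/L glucose, L_O had low glucose with oxidised low-density lipoprotein (ox-LDL), and H_O had 33 mmol/L glucose with ox-LDL. The ox-LDL dose reads 50 mg/ml in the labels, a unit in doubt, and mannitol is named for L_C alone. In any comparison with L_C, the lack of mannitol and the effect of ox-LDL or glucose cannot be told apart, while H_O against H_C does not involve L_C. In H_O against L_O no osmotic control is named, so glucose and osmotic strength cannot be told apart. The labels do not say whether the replicates were separate animals or separate cultures, so the p-values measure the spread between these libraries, which may be technical. The mice carried no transgene by the labels (genotype WT), and no inhibitor or added interferon is named for any group.

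Type I interferons are secreted proteins that bind the receptor made of IFNAR1 and IFNAR2 on the same or a neighbouring cell. The kinases JAK1 and TYK2 at the receptor then activate the complex named ISGF3, which contains STAT2 and IRF9 and binds interferon-stimulated response elements (ISREs) near the target genes. Macrophages keep a low resting level of these target genes without infection, and the products sense viral nucleic acid, block viral translation, degrade RNA, deplete nucleotides or feed back on the pathway.

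The promoters shown are those of 4 genes, picked by smallest adjusted p in L_O against L_C (test below) among genes with an ISRE match. Each runs from 250 bases before the RefSeq start site to 50 bases after it (RefSeq, GRCm38.p6, the build also called mm10), in the direction of the gene, with matches to the ISRE core GAAANNGAAA on either strand in capitals.
Rsad2, chr12:26456403-26456702 (- strand): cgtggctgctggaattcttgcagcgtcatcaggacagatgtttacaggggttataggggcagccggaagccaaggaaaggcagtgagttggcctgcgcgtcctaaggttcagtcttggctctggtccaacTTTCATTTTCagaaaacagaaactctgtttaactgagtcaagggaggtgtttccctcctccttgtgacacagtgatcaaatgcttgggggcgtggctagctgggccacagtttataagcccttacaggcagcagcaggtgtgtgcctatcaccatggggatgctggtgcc
Ifit1, chr19:34640639-34640938 (+ strand): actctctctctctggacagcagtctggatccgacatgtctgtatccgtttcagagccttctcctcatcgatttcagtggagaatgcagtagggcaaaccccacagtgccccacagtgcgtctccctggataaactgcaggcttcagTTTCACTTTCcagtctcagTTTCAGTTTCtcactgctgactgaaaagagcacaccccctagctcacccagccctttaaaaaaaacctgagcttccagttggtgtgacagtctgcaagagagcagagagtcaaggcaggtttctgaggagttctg
Ifit3, chr19:34583279-34583578 (+ strand): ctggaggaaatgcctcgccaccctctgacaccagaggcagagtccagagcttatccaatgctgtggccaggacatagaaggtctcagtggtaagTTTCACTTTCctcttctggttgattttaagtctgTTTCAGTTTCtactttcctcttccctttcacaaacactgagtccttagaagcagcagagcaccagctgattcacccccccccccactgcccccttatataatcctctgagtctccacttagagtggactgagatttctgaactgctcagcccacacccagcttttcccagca
Oas3, chr5:120777610-120777909 (- strand): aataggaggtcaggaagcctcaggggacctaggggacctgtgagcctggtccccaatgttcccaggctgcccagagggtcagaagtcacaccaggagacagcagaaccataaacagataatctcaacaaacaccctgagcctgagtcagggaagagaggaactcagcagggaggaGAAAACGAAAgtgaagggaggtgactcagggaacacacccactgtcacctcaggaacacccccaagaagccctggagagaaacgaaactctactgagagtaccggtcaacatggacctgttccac
The copy of the core nearest to the start began at position -120 in Rsad2, -85 in Ifit1, -122 in Ifit3 and -75 in Oas3, counted from the start site at 0. RefSeq promoters were matched by symbol for 23 of the 32 genes. Of these, 13 (56.5%) held the ISRE core, against 3.99% of 27025 genes with a promoter of the same length. The 13 were Bst2, Ddx58, Eif2ak2, Ifih1, Ifit1, Ifit3, Isg15, Oas1a, Oas3, Rsad2, Slfn5, Stat2 and Trim30a. Ifit2 and Ifi44, which were among the largest falls in L_O against L_C, had a promoter entry with no match to the ISRE core. The core of the gamma-activated site, TTCNNNGAA, which reads the same on both strands, was in 6 of the 23 (26.1%), against 9.55% of the 27025 genes. In 3 genes the window held both cores, and in 1 of them the matches shared a base. The ISRE core was in 8 of the 16 matched genes that were lower in L_O than in L_C and in 5 of the 7 that were not called. A match describes letters in a window and is not a measured binding site. The 9 genes without a promoter entry were Mx1, Mx2, Oas2, Usp18, Zbp1, Rtp4, Ifi204, Dhx58 and Parp14.

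Library totals lay between 32596640 and 41712885 counts, and levels below are in CPM, read counts scaled to a common library size with TMM factors. Genes that define macrophages were abundant in every group, with means from 14100 to 15900 CPM for Lyz2 (lysozyme), 377 to 528 CPM for Adgre1 (F4/80) and 580 to 877 CPM for Csf1r (the M-CSF receptor). Their levels still differed between groups. Of 9 such genes, 3 were lower and 2 higher in L_O than in L_C, by the test described below. In H_O against H_C 2 were lower and 4 higher, and in H_C against L_C 4 were lower and 2 higher. In H_O against L_O 1 was lower and 3 were higher. Over all tested entries, 13.8%, 11.5%, 7.75% and 3.39% were lower in these comparisons, in the order given. Those higher were 12%, 10.4%, 5.02% and 2.71%. Csf1r was lower with ox-LDL in both glucose conditions. Adgre1 was lower in H_C than in L_C and higher in H_O than in H_C. L_C replicate 4 stood apart from the other libraries. Its share of mitochondrial reads was 3.71%, while the 15 others held 1.48 to 2.30%, and some results below are given with and without it. In bulk RNA, fewer cells of a type and less RNA per cell cannot be told apart.

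The interferon-stimulated genes stood highest in low glucose without ox-LDL (L_C, with mannitol) and lower with ox-LDL, with high glucose and with both. Summed over the 32 genes, the level was 2400, 2837, 2709 and 2769 CPM in L_C replicates 1 to 4, and 1740, 1540, 1568 and 1614 CPM in L_O. It was 1768, 1892, 1952 and 1902 CPM in H_C, and 1339, 1577, 1430 and 1305 CPM in H_O. All 12 libraries with ox-LDL, high glucose or both lay below all 4 L_C libraries, L_O lay below H_C, and the H_O and L_O ranges overlapped. The group mean was highest in L_C for 31 of the 32 genes, the exception being Mx2, and 20 genes followed the order L_C, H_C, L_O, H_O. As a median over the 32 genes, the mean level was 62.8% of that in L_C for L_O, 71.5% for H_C and 57.9% for H_O.

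**Figure D1:**
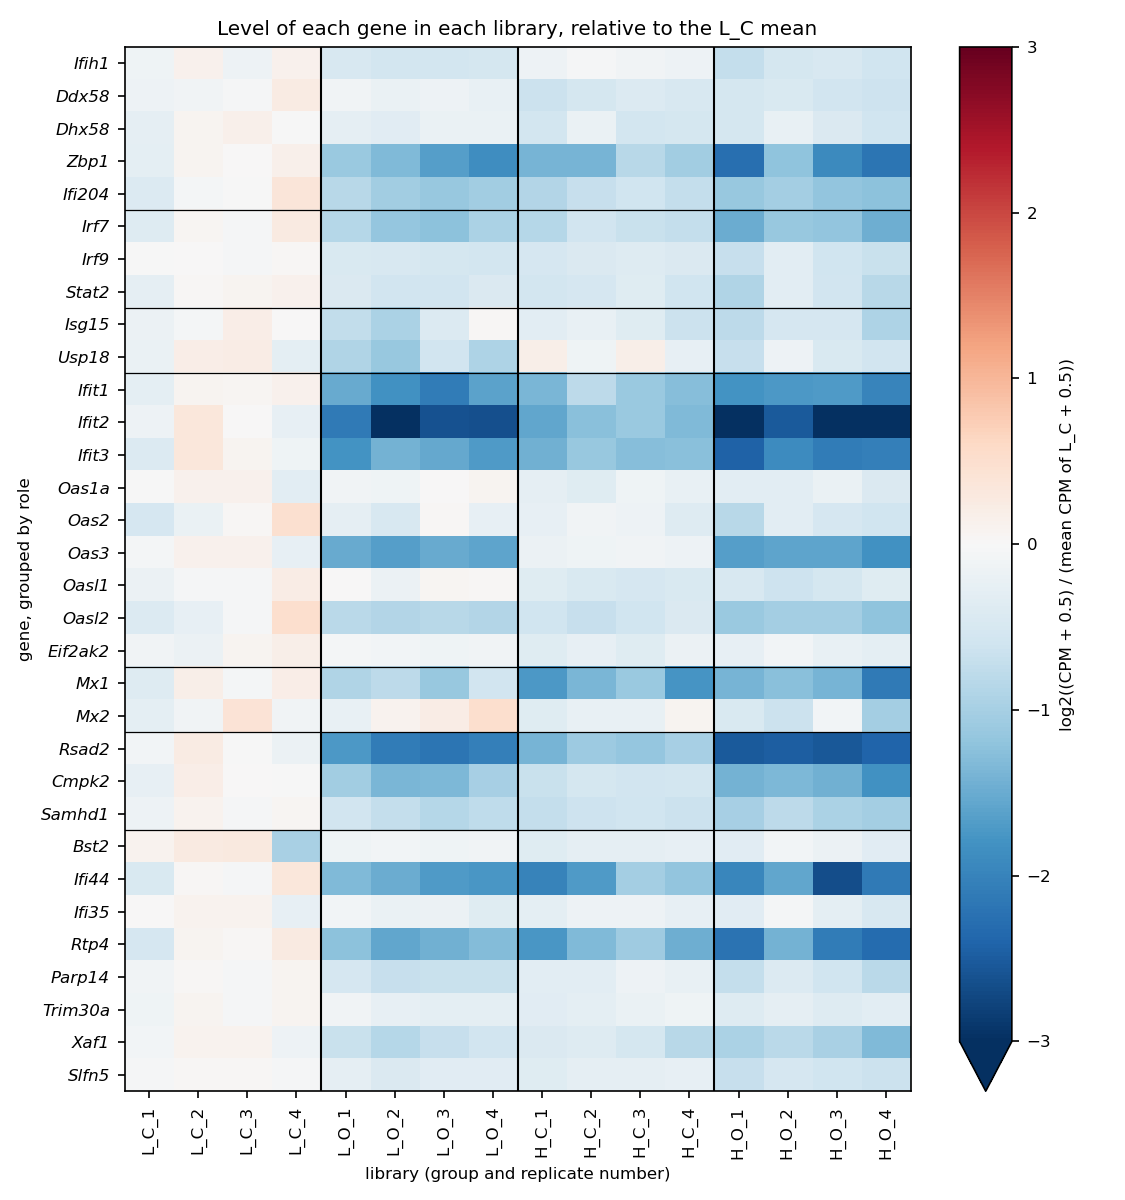
Level of each of the 32 genes (rows, grouped by role) in each of the 16 libraries (columns), as the log2 ratio of CPM + 0.5 to the L_C mean + 0.5, blue below and red above that mean, with values under -3 drawn in the darkest blue. Rows for Ifit2, Rsad2, Ifit1, Ifit3, Rtp4, Ifi44 and Zbp1 are the darkest across L_O and H_O, while Oas1a, Eif2ak2 and Ifi35 stay pale throughout, and Bst2 is low in L_C replicate 4.

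The effect of ox-LDL in low glucose was read from L_O against L_C. Of the 32 genes, 22 were lower and 0 higher at an adjusted p under 0.05 (edgeR quasi-likelihood F test, adjusted by the Benjamini-Hochberg method over the 13527 entries, as for every adjusted p below). Over all tested entries 13.8% were called lower and 12% higher. The median log2 fold change was -0.674 for the 32 genes and 0.000925 for all entries. In 21 genes every L_O library lay below every L_C library, a separation in that direction seen in 13.9% of all entries. The largest falls were those of Ifit2, Rsad2, Ifit1, Ifi44 and Ifit3, which stood 7.25, 4.09, 3.60, 3.31 and 3.23 times lower in L_O.

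H_O against H_C gave the effect of ox-LDL in high glucose and compared none of the libraries of the first. All 16 libraries share 1 estimate of the spread, so its p-values are not independent of the first. Here 17 of the 32 genes were lower and 0 higher, against 11.5% and 10.4% of all entries. The median log2 fold change was -0.393 for the 32 genes and 0.00894 for all entries, and 13 genes had every H_O library below every H_C library, as did 14.8% of all entries. All 17 genes were among the 22 that were lower in L_O than in L_C, 5 others (Irf9, Stat2, Mx1, Ifi44 and Trim30a) passed in low glucose and not in high glucose, and 10 passed in neither. Across the 32 genes, which are not independent replicates, the log2 fold changes of both comparisons had a Pearson r of 0.858.

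**Figure D2:**
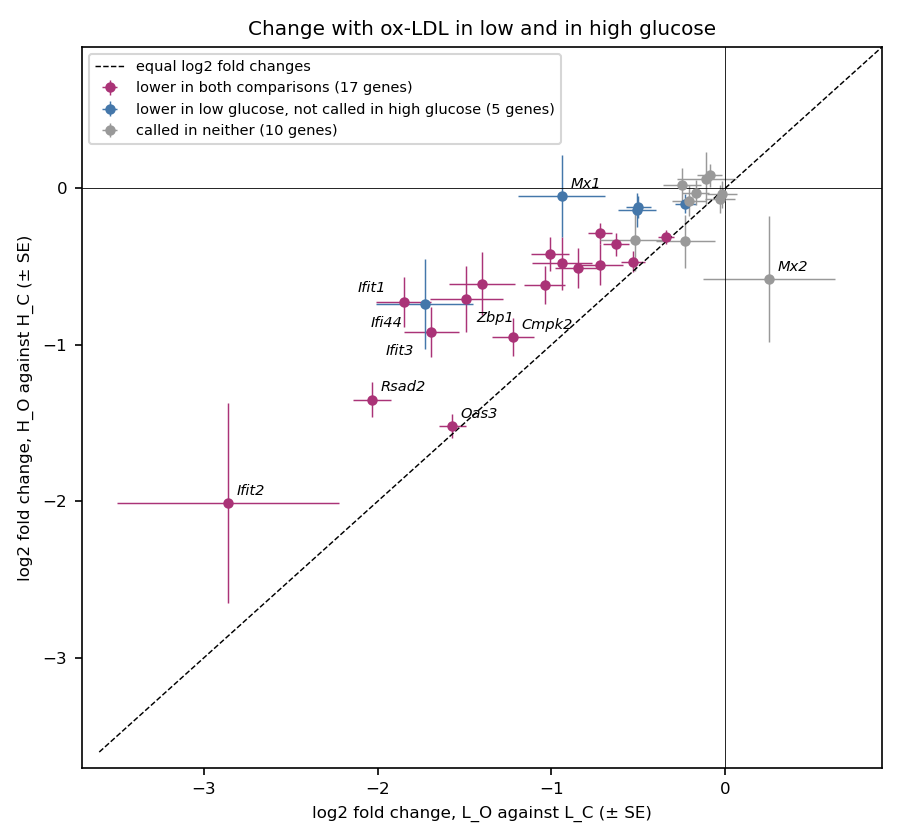
Log2 fold change with ox-LDL in low glucose (L_O against L_C, x axis) and in high glucose (H_O against H_C, y axis) for each of the 32 genes, with bars of 1 standard error and the dashed line where both are equal. Of the points, 28 lie above the line, where the log2 fold change is the higher in high glucose, and Oas3 lies next to it at -1.57 and -1.52.

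The log2 fold change with ox-LDL was higher (less negative, or positive) in high glucose in 28 of the 32 genes, but the difference passed the test in 0 of them in either direction, as in all but 0.00739% of entries in each direction. The interaction, which is the log2 fold change of H_O against H_C minus that of L_O against L_C, had a median of 0.269 over the 32 genes and 0.00841 over all entries. It was negative in 4 of the 32 genes and in 6496 of the 13527 entries. The lowest adjusted p among the 32 was that of Ifit1, with an interaction of 1.12 ± 0.22 (adjusted p = 0.0774). With DESeq2 4 of the 32 passed, all with a positive interaction, namely Ifit1, Rsad2, Ifi204 and Samhd1, and over all entries 79 were called higher and 15 lower. The same L_C libraries enter the interaction of every gene.

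High glucose without ox-LDL was compared as H_C against L_C. In it 22 of the 32 genes were lower and 0 higher, against 7.75% and 5.02% of all entries, with a median log2 fold change of -0.483 against -0.00454. In 23 genes every H_C library lay below every L_C library, against 9.82% of all entries. This comparison shares the L_C libraries with L_O against L_C, so a high L_C level enters both. The comparison of H_O with L_O, in cells that all had ox-LDL, compares none of the same libraries. Mannitol is named for neither of these groups, so glucose and osmotic strength cannot be told apart in this comparison. There, 5 genes were lower (Ifit3, Rsad2, Slfn5, Ddx58 and Oasl1) and 0 higher, against 3.39% and 2.71% of all entries. The median was -0.255 against 0.00304, and 8 genes had every H_O library below every L_O library, against 9.52% of all entries. The count of 5 became 10 without L_C replicate 4, 9 with DESeq2 and 8 without H_O replicate 2. No L_C library is compared here, so leaving out L_C replicate 4 acts through the spread, filter and scaling that all libraries share. Without that library, Mx1, Oas1a, Oasl2, Rtp4 and Samhd1 passed as well. Over all entries, the count lower was 459, and in the same settings 1014, 674 and 320.

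Among the sensors of viral nucleic acid, 3 of 5 (Ifih1, Zbp1 and Ifi204) fell with ox-LDL in both glucose conditions, and 4 of 5 (all but Ifih1) were lower in H_C than in L_C. Values are given for replicates 1 to 4 in order, and the number after ± is the standard error of a log2 fold change. Ifih1 encodes MDA5, the cytoplasmic helicase that recognises long double-stranded RNA. Ifih1 stood at 65.3, 77.6, 63.6 and 77.3 CPM in L_C, 50.8, 48.5, 48.1 and 49 in L_O, 63.6, 69.3, 65.7 and 64.2 in H_C and 43.3, 48.7, 50.9 and 46.7 in H_O. Both ox-LDL groups lay below both groups without it, with no overlap, and the log2 fold change was -0.53 ± 0.068 (adjusted p = 9.39e-06) in low glucose and -0.47 ± 0.068 (adjusted p = 4.2e-05) in high glucose. For glucose without ox-LDL it was -0.11 ± 0.067 (adjusted p = 0.312), with overlapping libraries. Ddx58 encodes RIG-I, the sensor of RNA with a 5′ triphosphate, and showed the opposite pattern. Ddx58 stood at 46.3, 48.2, 50.7 and 61.2 CPM in L_C, 48, 44.7, 46.2 and 44.3 in L_O, 32.6, 35.9, 38.8 and 36.8 in H_C and 35.5, 37.6, 34.5 and 33.5 in H_O. The H_C and H_O libraries all lay below the L_C and L_O libraries, with a log2 fold change of -0.52 ± 0.078 (adjusted p = 0.000254) for H_C against L_C and -0.38 ± 0.078 (adjusted p = 0.00627) for H_O against L_O. With ox-LDL its change was -0.17 ± 0.077 (adjusted p = 0.113) in low glucose, and in high glucose the 95% interval was -0.2 to 0.14.

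Dhx58 encodes LGP2, a helicase without signalling domains that tunes the other RNA sensors. Dhx58 stood at 20, 25.6, 26.8 and 23.9 CPM in L_C, 20, 18.9, 20.9 and 21 in L_O, 16.2, 20.9, 16.4 and 16.5 in H_C and 16.6, 20.7, 17.7 and 15.7 in H_O. Its level in H_C was lower than in L_C, with a log2 fold change of -0.46 ± 0.11 (adjusted p = 0.00738), although H_C replicate 2 lay above L_C replicate 1. Zbp1 encodes a sensor of Z-form nucleic acid that can start necroptosis. Zbp1 stood at 38.8, 50.1, 47.7 and 52.7 CPM in L_C, 21.6, 18.6, 14.7 and 12.6 in L_O, 17.8, 17.7, 26.4 and 22.6 in H_C and 9.48, 20.1, 12.2 and 9.92 in H_O. All L_C libraries lay above the other 12, and H_O replicate 2 lay within the H_C range. The log2 fold change of Zbp1 was -1.49 ± 0.21 (adjusted p = 3.18e-05) for L_O against L_C, -1.16 ± 0.21 (adjusted p = 0.00114) for H_C against L_C and -0.71 ± 0.21 (adjusted p = 0.0217) for H_O against H_C, the last being -1.01 without H_O replicate 2. That call for Zbp1 was lost in 6 of the 25 alternative settings, which gave -0.59 to -0.68 and adjusted p up to 0.0909, 5 of them leaving out H_C replicate 3 or 4 or H_O replicate 1, 3 or 4. Ifi204 encodes a DNA-binding protein of the PYHIN family. Ifi204 stood at 138, 177, 182 and 234 CPM in L_C, 103, 88.7, 82.8 and 89.1 in L_O, 99.7, 113, 120 and 112 in H_C and 82.8, 90.4, 80.5 and 77.8 in H_O. Its L_C libraries spread the most and still lay above all others, and the log2 fold change with ox-LDL was -1.01 ± 0.11 (adjusted p = 2.22e-06) in low glucose and -0.42 ± 0.11 (adjusted p = 0.0106) in high glucose. Of the 50-base stretches in Ifi204 transcripts, 20% also occur in other genes, mainly Mndal, so its counts could be split between them.

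All 3 transcription factor genes were lower in L_O than in L_C and lower in H_C than in L_C, and 1 of them, Irf7, was also lower in H_O than in H_C. Irf7, at chr7:141262706-141266481 (mm10), encodes the factor that amplifies interferon gene transcription. Irf7 stood at 84, 115, 108 and 132 CPM in L_C, 60.8, 49.2, 46.6 and 57 in L_O, 60.4, 74.1, 69.3 and 67.1 in H_C and 38.8, 50, 48.4 and 39.4 in H_O. All L_C libraries lay above all others, and H_O lay below H_C without overlap. The log2 fold change of Irf7 was -1.04 ± 0.12 (adjusted p = 3.41e-06) with ox-LDL in low glucose, -0.62 ± 0.12 (adjusted p = 0.00105) with ox-LDL in high glucose and -0.7 ± 0.12 (adjusted p = 0.000854) for H_C against L_C. Irf9 encodes the DNA-binding subunit of ISGF3. Irf9 stood at 51.4, 52.9, 50.5 and 53.5 CPM in L_C, 38.1, 37.4, 35.8 and 35.7 in L_O, 36.5, 38.6, 39.8 and 38.4 in H_C and 32.1, 41.9, 34.3 and 32.5 in H_O. The 4 L_C libraries lay within 50.5 to 53.5 CPM and the highest of the other 12 was H_O replicate 2, at 41.9 CPM. Its log2 fold change was -0.5 ± 0.071 (adjusted p = 2.89e-05) for L_O against L_C and -0.44 ± 0.071 (adjusted p = 0.000433) for H_C against L_C. In high glucose it was -0.12 ± 0.071 (adjusted p = 0.263) with ox-LDL, and -0.22 (adjusted p = 0.00899) without H_O replicate 2. Stat2 encodes the signal-transducing subunit of ISGF3. Stat2 stood at 80.8, 98.9, 103 and 106 CPM in L_C, 71.9, 64.7, 65 and 71.2 in L_O, 66.6, 68.3, 74.8 and 64.3 in H_C and 52, 77.7, 64.6 and 54.4 in H_O. The same library, H_O replicate 2, was the highest outside L_C, and the log2 fold change was -0.51 ± 0.11 (adjusted p = 0.00133) for L_O against L_C, -0.5 ± 0.11 (adjusted p = 0.00384) for H_C against L_C and -0.14 ± 0.11 (adjusted p = 0.405) for H_O against H_C.

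The ISG15 system gave weaker separations. Isg15 encodes a ubiquitin-like protein that is joined to other proteins during infection. Isg15 stood at 5.48, 6, 7.22 and 6.31 CPM in L_C, 3.57, 2.99, 4.55 and 6.37 in L_O, 4.94, 5.26, 4.79 and 3.83 in H_C and 3.4, 4.28, 4.28 and 3.03 in H_O. L_O replicate 4 lay within the L_C range, and the log2 fold change of Isg15 did not pass in any comparison, with -0.52 ± 0.2 (adjusted p = 0.0656) for L_O against L_C and -0.41 ± 0.2 (adjusted p = 0.195) for H_C against L_C. Usp18 encodes the protease that removes ISG15 and also inhibits IFNAR2 signalling. Usp18 stood at 8.42, 11.1, 11.3 and 7.75 CPM in L_C, 4.96, 4.09, 6.29 and 4.84 in L_O, 10.9, 8.73, 11 and 8.04 in H_C and 5.82, 8.7, 6.9 and 6.3 in H_O. Usp18 fell with ox-LDL in low glucose, with a log2 fold change of -0.94 ± 0.17 (adjusted p = 0.000396), and its L_C and H_C libraries overlapped fully, with a 95% interval of -0.36 to 0.36 for their log2 difference. In high glucose its fall of -0.48 ± 0.17 (adjusted p = 0.0485) was lost in 13 of the 25 alternative settings.

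**Figure D3:**
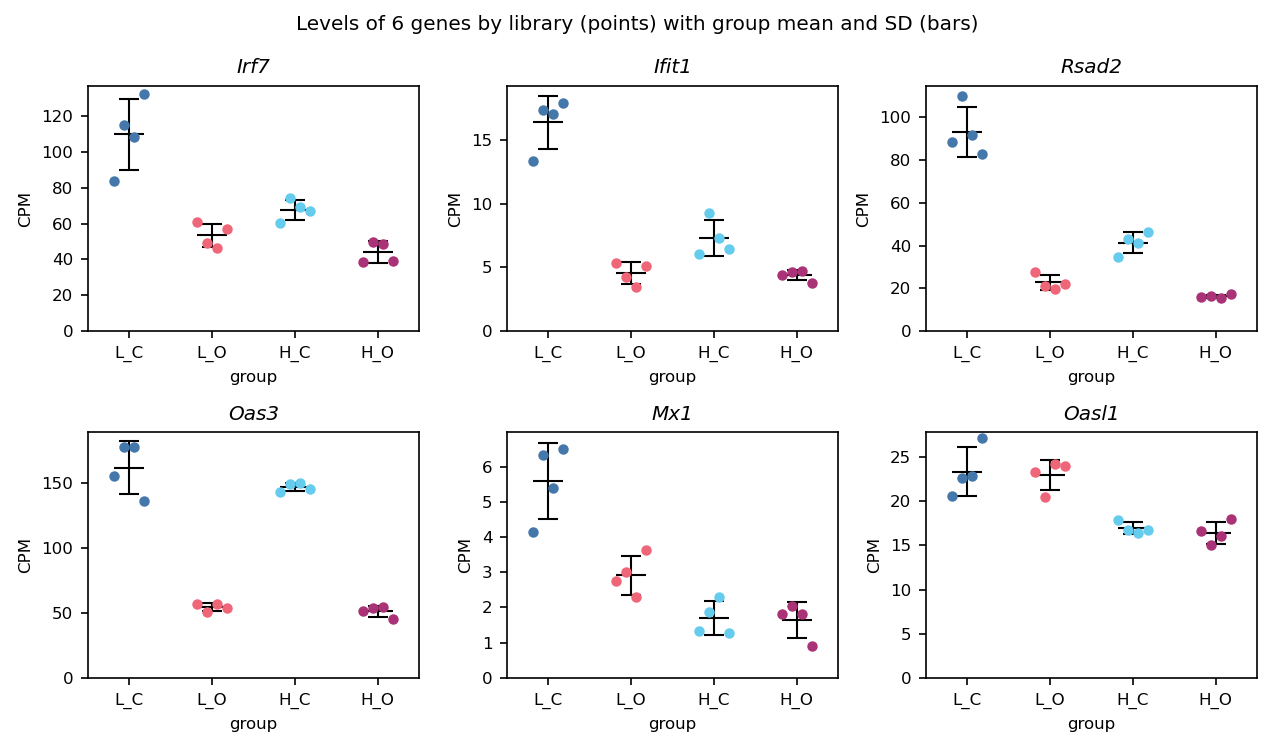
CPM of Irf7, Ifit1, Rsad2, Oas3, Mx1 and Oasl1 in every library (points), by group (x axis), with the group mean and SD (n = 4). Irf7, Ifit1, Rsad2 and Mx1 are highest in all 4 L_C libraries, Oas3 is low in both ox-LDL groups and Oasl1 is low in both high glucose groups.

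The Ifit genes encode tetratricopeptide proteins that bind viral RNA or translation factors, and all 3 lie within chromosome 19 near each other. All 3 were lower with ox-LDL in both glucose conditions. Ifit1, at chr19:34640871-34650009, encodes the member that binds RNA with an unmethylated cap. Ifit1 stood at 13.3, 17.3, 17 and 17.9 CPM in L_C, 5.38, 4.27, 3.48 and 5.09 in L_O, 6.07, 9.23, 7.32 and 6.47 in H_C and 4.4, 4.63, 4.69 and 3.81 in H_O. All L_C libraries lay above all others, and L_O and H_O overlapped. The log2 fold change of Ifit1 was -1.85 ± 0.16 (adjusted p = 6.03e-08) with ox-LDL in low glucose, -0.73 ± 0.16 (adjusted p = 0.0019) with ox-LDL in high glucose and -1.17 ± 0.15 (adjusted p = 6.71e-05) for H_C against L_C. Ifit3, at chr19:34583531-34588731, encodes a partner that stabilises IFIT1. Ifit3 stood at 12.8, 22.2, 18.4 and 15.9 CPM in L_C, 4.63, 6.13, 5.68 and 5.01 in L_O, 6.07, 7.56, 6.89 and 6.99 in H_C and 2.79, 4.31, 3.63 and 3.77 in H_O. Its 4 groups took the order L_C, H_C, L_O, H_O in the means, and it passed in all 4 pairwise comparisons, with -1.69 ± 0.16 (adjusted p = 2.64e-07) for L_O against L_C and -0.92 ± 0.16 (adjusted p = 0.000372) for H_O against H_C. The call for H_O against L_O, -0.57 ± 0.16 (adjusted p = 0.0494), was lost in 16 of the 25 alternative settings. Of the 50-base stretches of Ifit3, 51.2% also occur in other genes, mainly Ifit3b, so reads could be split between them.

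Ifit2, at chr19:34550694-34576419, encodes a protein that limits viral translation, and it was nearly absent from 1 library of each ox-LDL group. Ifit2 stood at 150, 209, 167 and 139 CPM in L_C, 38, 1.07, 26.7 and 26.3 in L_O, 56.1, 68.8, 76.4 and 66.2 in H_C and 18.4, 28.4, 19 and 0.911 in H_O. L_O replicate 2 held 41 reads and H_O replicate 4 held 37, which are 4.0% and 4.83% of the median of the other libraries of their groups. The other 31 genes summed to 1539 CPM in L_O replicate 2, against 1541 to 1702 CPM in the other L_O libraries, and to 1304 CPM in H_O replicate 4, against 1321 to 1548 CPM in the other H_O libraries. Of the 7350 entries with at least 500 counts in each of H_O replicates 1 to 3, Ifit2 alone was below 10% of their median level in replicate 4. In L_O replicate 2, by the same measure, it was 1 of 2 entries among 7133, the other being an unannotated region. Other libraries held 0 to 2 such entries, among them Zc3h11a in L_C replicate 2 and Gm20716 in H_O replicate 2 and L_O replicate 3. No entry had at least 500 counts in both L_O replicate 2 and H_O replicate 4 and over 2 times the highest count of any other library. None of the 50-base stretches of Ifit2 occurs in another gene and no other gene overlaps it.

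With all libraries the log2 fold change of Ifit2 was -2.86 ± 0.64 (adjusted p = 0.00268) for L_O against L_C, -2.01 ± 0.64 (adjusted p = 0.0296) for H_O against H_C and -1.31 ± 0.6 (adjusted p = 0.171) for H_C against L_C. Without L_O replicate 2 and H_O replicate 4, an alternative chosen after seeing the data, these were -2.46 (adjusted p = 1.13e-07), -1.61 (adjusted p = 8.71e-06) and -1.31 (adjusted p = 8.85e-05). The call for H_O against H_C with all 16 libraries was lost in 6 of the 25 alternative settings, DESeq2 among them. The comparison of H_C with L_C contains neither library, and its p changed through the spread that the groups share. The fall of Ifit2 with ox-LDL was present in the 6 other ox-LDL libraries, at 18.4 to 38.0 CPM, below every H_C library.

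**Figure D4:**
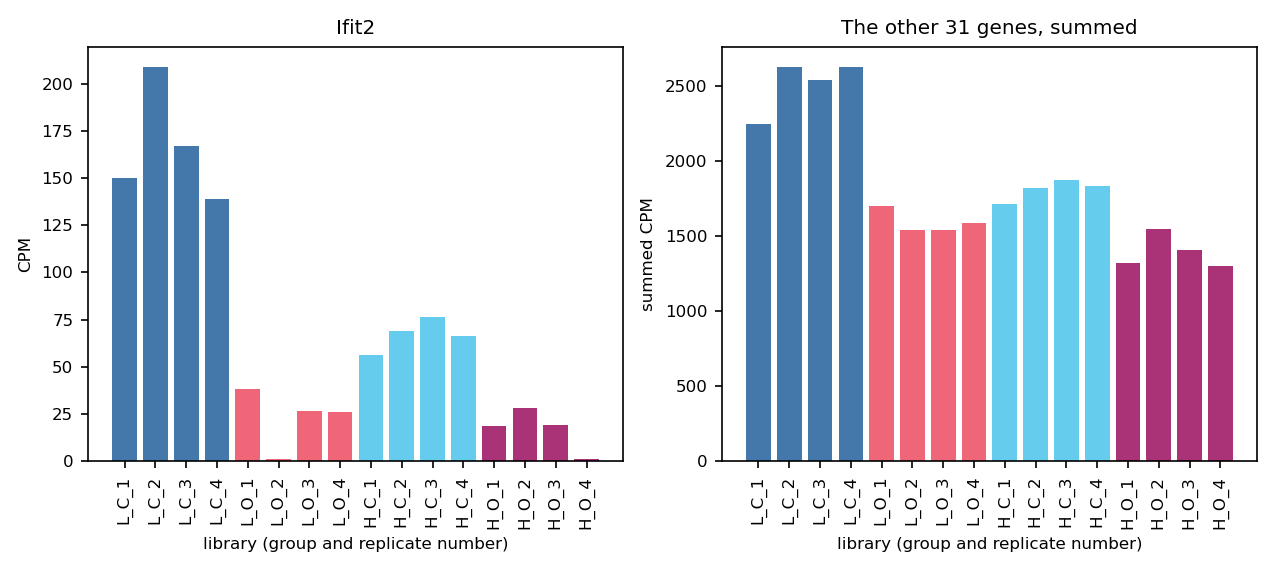
CPM of Ifit2 (left) and the summed CPM of the other 31 genes (right) in each of the 16 libraries, colored by group. Ifit2 is close to 0 in L_O replicate 2 and H_O replicate 4, while the other 31 genes in these libraries sum to 1539 and 1304 CPM, near the rest of their groups.

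The Oas genes encode synthases of the oligoadenylates that switch on RNase L, and their relatives Oasl1 and Oasl2 differ in activity. They did not move as a block. Oas3, at chr5:120753098-120777661, makes oligoadenylates in response to long double-stranded RNA. Oas3 stood at 155, 178, 178 and 136 CPM in L_C, 56.9, 51, 56.8 and 53.4 in L_O, 143, 149, 150 and 145 in H_C and 51.4, 53.8, 54.2 and 45.3 in H_O. Both ox-LDL groups lay between 45.3 and 56.9 CPM and both groups without it between 136 and 178 CPM. The log2 fold change of Oas3 was -1.57 ± 0.077 (adjusted p = 7.04e-11) in low glucose and -1.52 ± 0.077 (adjusted p = 1.2e-10) in high glucose, and the interaction was 0.05 ± 0.11 (adjusted p = 0.928). With glucose it was -0.14 ± 0.075 (adjusted p = 0.241) without ox-LDL and -0.09 ± 0.077 (adjusted p = 0.58) with it, the first passing without L_C replicate 4 (-0.21, adjusted p = 0.017).

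The neighbours of Oas3 on chromosome 5 did not pass in any pairwise comparison. Oas1a, at chr5:120896256-120907521, lay between 47.2 and 64.3 CPM in L_C, 53.3 and 62.2 in L_O, 45.2 and 53.4 in H_C, and 42.9 and 51.0 in H_O. Its 95% interval for ox-LDL was -0.22 to 0.16 in low glucose and -0.26 to 0.12 in high glucose, both far from the fall of Oas3. With glucose its log2 fold change was -0.25 ± 0.088 (adjusted p = 0.0747) without ox-LDL and -0.29 ± 0.088 (adjusted p = 0.0598) with it, and both passed without L_C replicate 4, where they were -0.34 (adjusted p = 0.00184) and -0.29 (adjusted p = 0.00439). Of its 50-base stretches, 57.6% also occur in other genes, mainly Oas1g. Oas2, at chr5:120730333-120749853, lay between 12.9 and 26.1 CPM in L_C, 13.1 and 19.1 in L_O, 14.1 and 17.2 in H_C, and 10.3 and 14.8 in H_O. Its intervals were wider, -0.6 to 0.14 and -0.71 to 0.03 for ox-LDL. The difference in response between these genes was not tested.

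Oasl1 passed in both glucose comparisons and in neither ox-LDL comparison, while Oasl2 passed in both ox-LDL comparisons and in H_C against L_C. Oasl1 encodes a protein without synthase activity that represses translation of Irf7. Oasl1 stood at 20.6, 22.7, 22.9 and 27.2 CPM in L_C, 23.3, 20.5, 24.2 and 24 in L_O, 17.9, 16.8, 16.4 and 16.7 in H_C and 16.6, 15, 16.1 and 18 in H_O. All 8 high glucose libraries lay below all 8 low glucose libraries. Its log2 fold change was -0.46 ± 0.087 (adjusted p = 0.00158) for H_C against L_C and -0.48 ± 0.086 (adjusted p = 0.00197) for H_O against L_O. With ox-LDL it was -0.02 ± 0.086 (adjusted p = 0.888) and -0.04 ± 0.087 (adjusted p = 0.795), values that turned positive with no scaling beyond library totals. Oasl2 encodes a relative that keeps synthase activity. Oasl2 stood at 67.5, 75.4, 86.7 and 127 CPM in L_C, 50.9, 47.9, 50.2 and 48.6 in L_O, 58.8, 54.9, 58.9 and 65.8 in H_C and 40.9, 44.1, 44.1 and 38.1 in H_O. L_C replicate 4 was the highest library by a wide margin, and every L_O library lay below every L_C library. Oasl2 fell with ox-LDL, with a log2 fold change of -0.85 ± 0.13 (adjusted p = 9.39e-05) in low glucose (-0.63 without L_C replicate 4) and -0.51 ± 0.13 (adjusted p = 0.00938) in high glucose. Its change for H_C against L_C was -0.58 ± 0.13 (adjusted p = 0.0071), and -0.36 (adjusted p = 0.00216) without L_C replicate 4. It was lost with only the 8 libraries compared (-0.57, adjusted p = 0.0641).

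Eif2ak2 encodes PKR, the kinase that halts translation on binding double-stranded RNA. Eif2ak2 stood at 48.8, 47, 55.5 and 60 CPM in L_C, 50.9, 49.8, 48.6 and 49.3 in L_O, 41, 44.2, 41 and 46.4 in H_C and 44.1, 49.6, 45.3 and 43.2 in H_O. The H_C libraries all lay below the L_C libraries, with a log2 fold change of -0.29 ± 0.072 (adjusted p = 0.0116), and the 95% interval for ox-LDL was -0.25 to 0.07 in low glucose and -0.08 to 0.24 in high glucose. The call for H_C against L_C was lost with only the 8 libraries compared (adjusted p = 0.0756).

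The Mx genes encode dynamin-like GTPases that trap viral nucleocapsids. Mx1, at chr16:97447035-97462907, was low in all groups, with 37 to 253 reads a library. Mx1 stood at 4.13, 6.33, 5.39 and 6.51 CPM in L_C, 2.75, 3.01, 2.29 and 3.62 in L_O, 1.34, 1.87, 2.3 and 1.28 in H_C and 1.82, 2.05, 1.8 and 0.911 in H_O. All L_C libraries lay above the other 12, and every H_O library lay below every L_O library. The largest change of Mx1 was with glucose, -1.71 ± 0.26 (adjusted p = 0.000242) for H_C against L_C, and with ox-LDL in low glucose it fell, with a log2 fold change of -0.94 ± 0.25 (adjusted p = 0.00874). For H_O against L_O it was -0.83 ± 0.26 (adjusted p = 0.0645), and without L_C replicate 4 it passed (adjusted p = 0.0399). Mx2 had 10 to 60 reads a library, too few for a precise value. Mx2 stood at 0.735, 0.912, 1.51 and 0.901 CPM in L_C, 0.786, 1.13, 1.27 and 1.63 in L_O, 0.671, 0.788, 0.794 and 1.1 in H_C and 0.606, 0.473, 0.927 and 0.246 in H_O. Its 95% interval was -0.59 to 1.09 for L_O against L_C and -1.44 to 0.29 for H_O against H_C. Wild-type C57BL/6 mice carry a defective Mx1 gene, so these values describe a transcript and not an active protein.

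All 3 genes that act on nucleotides fell with ox-LDL in both glucose conditions and were lower in H_C than in L_C. Rsad2 encodes viperin, which turns CTP into a chain terminator of viral RNA polymerases, and Cmpk2 beside it encodes a mitochondrial kinase that supplies nucleotide triphosphates. Rsad2 lies at chr12:26442746-26456452 and Cmpk2 at chr12:26469204-26479837. Rsad2 stood at 88.5, 110, 91.9 and 82.9 CPM in L_C, 27.9, 21.3, 19.9 and 22.3 in L_O, 34.9, 43.3, 41.3 and 46.5 in H_C and 15.8, 16.5, 15.6 and 17.2 in H_O. Each group of Rsad2 values was separate from the other 3, in the order L_C, H_C, L_O, H_O. Its log2 fold change was -2.03 ± 0.11 (adjusted p = 2.02e-10) with ox-LDL in low glucose, -1.35 ± 0.11 (adjusted p = 3.45e-08) with ox-LDL in high glucose, -1.17 ± 0.1 (adjusted p = 2.09e-06) for H_C against L_C and -0.49 ± 0.11 (adjusted p = 0.0111) for H_O against L_O. Cmpk2 stood at 22.5, 31, 27 and 26.6 CPM in L_C, 12.8, 10.1, 10.2 and 13.1 in L_O, 16.7, 18.5, 17.7 and 18.1 in H_C and 9.8, 10.2, 9.54 and 7.26 in H_O. Cmpk2 followed the same order with an overlap of L_O and H_O, and fell with ox-LDL, with a log2 fold change of -1.22 ± 0.12 (adjusted p = 3.97e-07) and -0.95 ± 0.12 (adjusted p = 9.7e-06). Samhd1 encodes a phosphohydrolase that destroys deoxynucleotides, which limits reverse transcription. Samhd1 stood at 398, 479, 430 and 460 CPM in L_C, 299, 270, 244 and 262 in L_O, 271, 288, 290 and 284 in H_C and 220, 258, 229 and 219 in H_O. All L_C libraries lay above the rest, and ox-LDL gave -0.72 ± 0.068 (adjusted p = 2.47e-07) in low glucose and -0.29 ± 0.067 (adjusted p = 0.00412) in high glucose, while H_C against L_C gave -0.64 ± 0.068 (adjusted p = 8.53e-06). Its interaction was 0.43 ± 0.095 (adjusted p = 0.114), and it passed with DESeq2.

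Of the 8 other effectors, 6 were lower in L_O than in L_C, 4 in H_O than in H_C and 6 in H_C than in L_C. The shares of all entries that were lower were 13.8%, 11.5% and 7.75% in the same order. Slfn5 encodes a member of the Schlafen family. Slfn5 stood at 363, 382, 382 and 365 CPM in L_C, 309, 278, 295 and 296 in L_O, 288, 307, 307 and 313 in H_C and 232, 261, 245 and 240 in H_O. No L_O library overlapped L_C or H_O. The log2 fold change was small and alike in size, -0.34 ± 0.045 (adjusted p = 1.44e-05) and -0.31 ± 0.045 (adjusted p = 4.5e-05) for ox-LDL and -0.3 ± 0.045 (adjusted p = 0.000273) and -0.27 ± 0.045 (adjusted p = 0.00128) for glucose. The antisense gene Slfn5os overlaps Slfn5, and reads from the pair cannot be told apart without the strand setting. Parp14 encodes an ADP-ribosyltransferase. Parp14 stood at 209, 233, 220 and 241 CPM in L_C, 159, 139, 142 and 143 in L_O, 180, 180, 202 and 194 in H_C and 138, 171, 150 and 128 in H_O. The L_C libraries lay above all others, and Parp14 fell with ox-LDL, with a log2 fold change of -0.63 ± 0.076 (adjusted p = 4.47e-06) in low glucose and -0.36 ± 0.075 (adjusted p = 0.00161) in high glucose. For H_C against L_C it was -0.26 ± 0.075 (adjusted p = 0.0308), a call lost in 6 of the 25 alternative settings, the replicate block among them.

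Rtp4 encodes a chaperone of receptors that also acts against RNA viruses. Rtp4 stood at 31.5, 47.8, 46 and 54.9 CPM in L_C, 19, 15, 16.2 and 18 in L_O, 13.2, 17.8, 21.4 and 16.1 in H_C and 9.35, 16.7, 10.2 and 8.76 in H_O. Every L_C library lay above every other, and H_O replicate 2 lay within the H_C range. Of the 50-base stretches of Rtp4, 11.6% also occur in other genes, mainly Gm45338. Gm45338 and Masp1 overlap it, so reads could be split between them. Rtp4 gave -1.4 ± 0.19 (adjusted p = 2.28e-05) for L_O against L_C, -1.4 ± 0.19 (adjusted p = 0.000123) for H_C against L_C and -0.61 ± 0.2 (adjusted p = 0.0335) for H_O against H_C, the last lost in 8 of the 25 alternative settings and equal to -0.86 without H_O replicate 2. Ifi44 encodes a GTP-binding protein. Ifi44 stood at 5.97, 8.51, 8.14 and 10.8 CPM in L_C, 3.05, 2.67, 2.23 and 2.15 in L_O, 1.71, 2.25, 3.84 and 3.39 in H_C and 1.79, 2.5, 0.9 and 1.53 in H_O. All L_C libraries lay above the other 12, which overlapped among themselves in L_O and H_C. Ifi44 gave -1.73 ± 0.28 (adjusted p = 0.000135) for L_O against L_C and -1.58 ± 0.28 (adjusted p = 0.00103) for H_C against L_C, and -0.74 ± 0.29 (adjusted p = 0.0786) for H_O against H_C, which was called without H_O replicate 2.

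Xaf1 encodes a zinc-finger protein that favours apoptosis. Xaf1 stood at 11.9, 13.7, 13.7 and 11.3 CPM in L_C, 7.86, 6.84, 7.65 and 8.36 in L_O, 9.21, 9.52, 8.6 and 6.96 in H_C and 6.35, 7.02, 6.24 and 4.8 in H_O. L_C lay above all others, and H_C and H_O overlapped through H_C replicate 4. Xaf1 fell with ox-LDL, with a log2 fold change of -0.72 ± 0.13 (adjusted p = 0.000301) in low glucose and -0.49 ± 0.13 (adjusted p = 0.00929) in high glucose, and gave -0.56 ± 0.13 (adjusted p = 0.00625) for H_C against L_C. Trim30a encodes a ubiquitin ligase that restrains inflammatory signalling. Trim30a stood at 90.8, 104, 95.9 and 105 CPM in L_C, 92.4, 83.4, 80.1 and 80.9 in L_O, 78.7, 81.2, 86.8 and 90.1 in H_C and 75.9, 82.7, 76.2 and 79 in H_O. Changes were small, -0.23 ± 0.061 (adjusted p = 0.00796) for L_O against L_C and -0.23 ± 0.061 (adjusted p = 0.0164) for H_C against L_C, and L_O replicate 1 lay above L_C replicate 1. The first call was lost with no scaling beyond library totals (-0.15, adjusted p = 0.065), and the second with only the 8 libraries compared (adjusted p = 0.0669) and without H_C replicate 1 (-0.20, adjusted p = 0.0634) or 2 (-0.22, adjusted p = 0.0527).

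Bst2 and Ifi35 did not pass in any comparison with all 16 libraries. Bst2 encodes tetherin, which holds budding virus at the cell surface. Bst2 was at 77.7, 87.2 and 88.8 CPM in L_C replicates 1 to 3 and at 36.7 CPM in L_C replicate 4, against 65.9 to 68.1 CPM in L_O, 56.1 to 60.7 CPM in H_C and 57.1 to 68.9 CPM in H_O. Without L_C replicate 4 its change was -0.33 (adjusted p = 0.000297) for L_O against L_C and -0.51 (adjusted p = 1.41e-05) for H_C against L_C. The interaction of Bst2 in that setting was 0.39 (adjusted p = 0.045), past the threshold. Ifi35 encodes a protein that binds other interferon-induced proteins, and it lay between 15.5 and 20.2 CPM in L_C, 14.4 and 17.6 in L_O, 15.2 and 16.8 in H_C, and 13.3 and 17.7 in H_O. Its changes without L_C replicate 4, -0.29 in both comparisons with L_C (adjusted p = 0.0266 for L_O and 0.0379 for H_C), passed. Of the 50-base stretches of Ifi35, 10.4% also occur in other genes, mainly Gm11626, an antisense gene that overlaps it.

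Per length of exon, the highest level in L_C was that of Bst2, at 80.4 CPM per kb, followed by Slfn5 at 59.0, Ifi204 at 51.4, Samhd1 at 48.3 and Ifit2 at 42.3 CPM per kb. The lowest were Mx2 at 0.279, Ifi44 at 1.36 and Mx1 at 1.48 CPM per kb.

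Libraries of a group tended to be high or low for many of the genes together. Such ranks were not counted over all entries, so a spread common to all entries and one of these genes cannot be told apart. H_O replicate 2 was the highest H_O library for 24 of the 32 genes and L_O replicate 1 the highest L_O library for 20, while H_C replicate 1 was the lowest H_C library for 22 and L_C replicate 1 the lowest L_C library for 21. The same H_O and L_O libraries were the highest for genes used as markers of interferon gamma. The summed level of these markers was 2770 CPM in H_O replicate 2 against 1510 to 1900 CPM in the other H_O libraries, and 2240 CPM in L_O replicate 1 against 1590 to 1910 CPM in the other L_O libraries. The part of this spread in the results was not tested beyond leaving out each library. Without H_O replicate 2, 19 of the 32 genes were lower in H_O than in H_C, against 17 with all 16 libraries. Over all entries, 1430 were lower without it and 1556 with all libraries.

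The lists of related genes below were tested in the same fit. Over all tested entries, 13.8% were lower and 12% higher in L_O against L_C. The shares were 11.5% and 10.4% in H_O against H_C, and 7.75% and 5.02% in H_C against L_C. Of 24 genes for interferons and their induction, 15 were tested. The other 9, which are the interferon genes themselves (Ifnb1, 4 Ifna genes, Ifnk, Ifne, Ifnl2 and Ifnl3), had no entry under these symbols among the read counts. Of the 15, 6 were lower in L_O than in L_C and 0 higher (median -0.19), while 5 were lower and 2 higher in H_O than in H_C (median 0.035). Ikbke, a kinase that activates IRF3 and IRF7, had a mean of 161 ± 11.8 CPM in L_C, 81.7 ± 1.91 in L_O, 143 ± 5.46 in H_C and 70.8 ± 2.41 in H_O (SD, n = 4). It fell with ox-LDL, with a log2 fold change of -0.98 ± 0.051 (adjusted p = 1.28e-10) in low glucose and -1.01 ± 0.051 (adjusted p = 1.1e-10) in high glucose. Irf5, a factor downstream of Toll-like receptors, fell, with a log2 fold change of -0.51 ± 0.043 (adjusted p = 6.6e-08) and -0.48 ± 0.043 (adjusted p = 1.51e-07), and Tlr9 and Ticam1 were lower with ox-LDL in both conditions too. The sensor genes Cgas and Tmem173 (STING), named after their values were seen, did not pass, with 95% intervals for ox-LDL in low glucose of -0.47 to 0.09 and -0.56 to -0.04.

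Of 20 genes for interferon receptors, signalling and inhibitors, 19 were tested, and 13 were lower in L_O than in L_C, 7 in H_O than in H_C and 9 in H_C than in L_C, with 0 higher in each. The medians were -0.277, -0.148 and -0.194. Ptpn6, which encodes the phosphatase SHP-1, fell with ox-LDL, with a log2 fold change of -0.84 ± 0.067 (adjusted p = 3.25e-08) in low glucose and -0.44 ± 0.067 (adjusted p = 8.26e-05) in high glucose. For Irf1, a transcription factor, the same values were -1.47 ± 0.16 (adjusted p = 1.95e-06) and -0.93 ± 0.16 (adjusted p = 0.000329). They were -0.63 ± 0.067 (adjusted p = 1.22e-06) and -0.42 ± 0.067 (adjusted p = 0.000119) for Irf8, a factor of the macrophage lineage, and -0.53 ± 0.072 (adjusted p = 1.95e-05) and -0.52 ± 0.072 (adjusted p = 2.8e-05) for the receptor gene Ifngr2. The receptor genes Ifnar1 and Ifnar2 were added after their values were seen. Ifnar1 gave -0.01 ± 0.046 (adjusted p = 0.946) with ox-LDL in low glucose and -0.24 ± 0.046 (adjusted p = 0.00196) for H_C against L_C, and Ifnar2 gave -0.28 ± 0.057 (adjusted p = 0.00114) and -0.34 ± 0.057 (adjusted p = 0.000725).

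A further list held 76 interferon-stimulated genes, of which 74 were tested. In L_O against L_C 55 were lower and 1 higher (Pnpt1), in H_O against H_C 39 were lower and 1 higher (Slfn9), and in H_C against L_C 35 were lower and 1 higher. The medians were -0.57, -0.314 and -0.325. The smallest adjusted p-values were those of Phf11d, Phf11b, Gbp3 and Herc6, at -1.51, -1.61, -1.85 and -1 in low glucose and -1.28, -1.03, -0.96 and -0.64 in high glucose.

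Of 17 genes taken as markers of interferon gamma, 16 were tested, and 15 were lower in L_O than in L_C, 8 in H_O than in H_C and 14 in H_C than in L_C, with 0 higher. Their medians, -1.93, -0.816 and -1.15, lay below those of the 32 genes. Cd274 (PD-L1) fell, with a log2 fold change of -1.16 ± 0.075 (adjusted p = 2.01e-09) and -0.81 ± 0.075 (adjusted p = 1.89e-07) with ox-LDL, and Cd74, H2-Aa and Gbp2 fell in both conditions as well. Type I interferon also induces several of these genes, and the lists are not exclusive. Ifng itself had 11, 57, 16 and 16 reads in L_C, 0, 0, 2 and 0 in L_O, 0, 10, 2 and 2 in H_C, and 0, 13, 0 and 0 in H_O.

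Summed markers of several other cell types also differed between the groups. Over 10 markers of T and NK cells, the summed level was 7.10 to 11.1 CPM in L_C, 3.29 to 5.56 in L_O, 5.40 to 8.12 in H_C and 3.91 to 5.73 in H_O. Trac and Ncr1 had no entry under these symbols. Over 7 dendritic cell markers it was 4.35 to 6.83 CPM in L_C, 1.61 to 3.94 in L_O, 3.08 to 4.99 in H_C and 2.23 to 2.64 in H_O. Of the defining markers of plasmacytoid dendritic cells, Siglech, Klk1 and Pacsin1 had no entry under these symbols. The other 6 summed to 144 to 168 CPM in L_C, 119 to 127 in L_O, 121 to 129 in H_C and 104 to 110 in H_O. Of these, 5 were tested and 1, Il3ra, was lower in L_O than in L_C, with means of 103 and 69.4 CPM, while the median log2 fold change of the 5 was 0.0447. For mast cells, eosinophils and basophils, 3 of 9 markers were measured, and their sum was 14.3 to 20.7 CPM in L_C, 3.73 to 5.04 in L_O, 19.5 to 23.6 in H_C and 4.7 to 5.87 in H_O, nearly all of it from Siglecf. Mesothelial and fibroblast markers summed to 57.9 to 78.4 CPM in L_C, 23.2 to 37.1 in L_O, 37.4 to 205 in H_C and 36.8 to 106 in H_O, with 1 H_C library at 205 CPM. The 6 measured B cell markers summed to 0.813 to 2.44 CPM in all groups. Il3ra and Siglecf were named after their values were seen. Markers of large peritoneal macrophages summed to 216 to 264 CPM in L_C, 113 to 121 in L_O, 208 to 230 in H_C and 107 to 114 in H_O. Neutrophil markers (5 of 10 with an entry) summed to 128 to 186, 72.6 to 84.8, 109 to 116 and 66 to 75.5 CPM in the order L_C, L_O, H_C, H_O. Those of small peritoneal macrophages and monocytes summed to 993 to 1070, 481 to 526, 762 to 796 and 366 to 407 CPM in the same order. Their part in the change of the interferon-stimulated genes was not tested.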

How the data were processed

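RNA from 16 libraries of mouse peritoneal macrophages was analysed from 1 table of read counts per gene, which the authors deposited without normalization. Per the submitters' processing notes, HISAT2, DESeq2 and mm10 were used. Their versions, what each did, how reads were counted, by which annotation and whether by strand are not given in the sources used here. Total RNA was isolated with Trizol, per the labels' protocols. Groups and replicate numbers came from the labels, and libraries held 32596640 to 41712885 counts. Unannotated regions made up 1594 of 15871 entries and 999 of the 13527 tested.

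The test was edgeR 4.0.16 under R 4.3.3 (quasi-likelihood F test, two-sided, TMM, filterByExpr by group, a mean for each group, 12 residual degrees of freedom over all 16 libraries), with Benjamini-Hochberg adjustment over all tested entries and a threshold of 0.05. Standard errors came from the same fit, and intervals are 95% intervals. The pipeline was tested on simulated data. Alternatives were RLE factors, no scaling, other filters, DESeq2 1.42.0, limma-voom (limma 3.58.1), the replicate number as a block, only the 8 libraries compared, and leaving out each library. Symbols were matched to GENCODE M21 for positions and exon lengths and to RefSeq for promoters. The older symbol Mb21d1 was matched to Cgas.

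The 32 genes and the other lists were chosen with earlier results of these data known. Library values were given for the transcription factor genes, Ifit2, members past the threshold in H_C against L_C, H_O against L_O or the interaction, and the 2 members of each role with the smallest adjusted p in L_O against L_C, with ranges for the rest. Up to 4 genes of each other list were named by smallest adjusted p in either ox-LDL comparison. A list was described by its counts and its median, with no test of the list.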

Additional observations from a re-analysis of the deposited data

Results flagged for a closer look

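Bst2 in H_C replicate 1, at 56.1 CPM, lay further below the other 3 libraries of its group (60.4 to 60.7 CPM) than their own range allows by Dixon's 95% criterion. Dhx58 in H_C replicate 2, at 20.9 CPM, lay above the other 3 (16.2 to 16.5 CPM) by the same criterion. These are 2 of 128 gene and group combinations examined, and chance alone flags about 1 in 20. The Ifit2 values of L_O replicate 2 and H_O replicate 4 are not among them, since the other 3 libraries of each group also spread.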

How the results depend on the processing

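Of 66 calls over the 32 genes and 4 pairwise comparisons, 56 held under all 25 alternatives, 10 were lost under at least 1 and 0 changed sign. Members lower in H_O than in L_O numbered 9 with DESeq2 and 9 with only the 8 libraries compared, against 5, and 4 to 10 when single libraries were left out. Over all entries these counts were 674, 901, 459 and 286 to 1014 in the same order. Members with a positive interaction past the threshold numbered 4 with DESeq2, against 0, and 0 to 3 when single libraries were left out. They were 2 without L_C replicate 1, 3 without L_C replicate 4 and 3 without L_O replicate 1. Over all entries the count with a positive interaction was 18, 41 and 17 in these settings, against 1 with all 16 libraries. The count lower in L_O than in L_C ran from 22 to 24 when single libraries were left out and from 21 to 23 otherwise. For H_O against H_C the ranges were 13 to 19 and 14 to 18, and for H_C against L_C 20 to 26 and 20 to 23. Over all entries, leaving out single libraries gave 1627 to 1990 lower in L_O against L_C. The same range was 1320 to 2001 in H_O against H_C and 789 to 1265 in H_C against L_C.

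Values near 0 changed sign without being called. With no scaling beyond library totals, which moved the median of all entries to 0.0858 in L_O against L_C and 0.0738 in H_O against H_C, Oasl1 was at 0.07 and Oas1a at 0.05 in the first and Mx1 at 0.01, Oasl1 at 0.02 and Ddx58 at 0.03 in the second. Without L_O replicate 2 and H_O replicate 4 together, chosen after seeing the data, Oasl1 was at 0.03 in L_O against L_C and Mx1 at 0.15 in H_O against H_C. Leaving out single libraries turned signs within these ranges. For L_O against L_C they were -0.08 to 0.06 (Oasl1) and -0.12 to 0.02 (Oas1a), and for H_O against H_C -0.18 to 0.15 (Mx1) and -0.07 to 0.11 (Dhx58). For H_O against L_O they were -0.17 to 0.03 (Ifit1), -0.37 to 0.02 (Isg15) and -0.07 to 0.07 (Parp14). For the interaction they were -0.1 to 0.04 (Oasl1), -0.09 to 0.05 (Oas1a) and -0.32 to 0.03 (Oas2). The cause was not tested.

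With the replicate block, 22 members were lower in L_O against L_C and 17 in H_O against H_C. For glucose the counts were 21 without ox-LDL and 5 with it, and Parp14 in H_C against L_C was the lost call. Over all entries the counts lower were 1805, 1525, 978 and 421 in the same order. Same-numbered libraries correlated by -0.164 to 0.0666 in their deviations from the group means. Such values cannot show whether the numbers mark a pairing, and the labels do not say. Depth limits Mx2 the most, at 10 to 60 reads a library.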
